A study of Homo sapiens with 90 samples.

Results

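The 37 genes described here act in the G2 phase of the cell cycle and in mitosis. They were chosen by name, from general knowledge of the cell cycle and with earlier results of these data known. The set held cyclins B and A2 with CDK1 and their regulators, mitotic kinases, and spindle checkpoint and anaphase-promoting complex proteins. It also held centromere and passenger proteins, kinesins and spindle proteins, cytokinesis proteins, and the chromosome proteins TOP2A and MKI67. Each gene was represented by its probe with the highest mean over all arrays, and all 37 of 37 lay above the limit for dim probes (a mean of 4.24 on the log2 scale), out of 12735 genes tested. Transcripts were measured in BxPC-3, a cell line derived from a human adenocarcinoma of the pancreas, on 90 single-colour Illumina arrays of total RNA. All cells, controls included, were kept in medium with 0.2% serum for 24 h before time 0 (2% serum was used for culture, and the labels do not say clearly whether serum was returned), and the cetuximab arm received cetuximab, a therapeutic antibody against the EGF receptor, at 10 µg/ml from time 0 while the other arm was a negative control. Each arm had 3 arrays at every one of 15 times, namely time 0, 7 times between 5 min and 8 h, and 7 daily times up to day 7. The labels do not state whether replicates were separate cultures, so p-values measure only the spread between these arrays, which may be technical.

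As background, CDK1 bound to cyclin B drives entry into mitosis, PLK1 and the Aurora kinases build the spindle and correct chromosome attachments, and the anaphase-promoting complex with CDC20 and UBE2C destroys cyclin B and securin (PTTG1) so that sister chromatids part. Transcripts of these genes are low in resting cells and rise late in the cell cycle. In human cells a complex of MuvB proteins, joined by B-MYB and FOXM1 in dividing cells and by repressors in resting cells, acts through a promoter element named CHR, often together with CCAAT boxes bound by NF-Y. In total RNA from a whole culture, fewer cells in G2 or mitosis and less RNA of a gene per cell cannot be told apart.

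The epithelial identity of the line was checked against defining markers. KRT19 averaged 12.02, EPCAM 10.19, KRT7 10.52 and CDH1 9.87 on the log2 scale, while the defining markers of leukocytes PTPRC (4.05) and CD3E (4.09), of fibroblasts PDGFRB (3.87) and THY1 (3.89) and of acinar cells CPA1 (3.87) lay below the dim limit. Above it lay the other 2 of 4 leukocyte genes measured, CD14 (5.56) and LYZ (5.22), the other 4 of 6 fibroblast genes, COL1A1 (4.50), COL1A2 (4.35), DCN (4.32) and LUM (4.26), and 1 of 5 acinar and endocrine genes, INS (4.29). Array medians ranged from 4.29 to 4.36, and replicate arrays correlated over the probes (not independent replicates) with Pearson's r between 0.978 and 0.989. Differences below are log2 values ± SE from 1 limma fit over all 90 arrays, and the threshold for a call was 0.05 after Benjamini-Hochberg adjustment across the 12735 genes of each comparison.

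The promoters of these genes were examined first, because the selection by name did not use them. Of the 37 genes, 31 had an entry in the RefSeq promoter table (build GRCh38.p14, from 250 bases before to 50 bases after the transcript start); FOXM1, AURKA, TTK, UBE2C, BIRC5 and TPX2 had none. The CHR core TTTGAA, searched on both strands, lay in 21 of the 31 windows (67.7%), against 10.4% of the promoters of the genes tested and 15.4% of all 27305 promoters in the table. The CCAAT box, searched as CCAAT on both strands, lay in 26 of 31 (83.9%), against 36.9% of the genes tested and 35.7% of all promoters, and 17 of the 31 held it 2 or more times (54.8%, against 11.3% of all). Both motifs stood in 19 windows (61.3%, against 6.08% of all), and CDC25C, CENPE and KIF2C were the 3 with neither. CCAAT and its reverse ATTGG can share letters, as they do once in HMMR, and each was then counted. A match describes letters and is not a binding site, and these shares were not tested.

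Among 64 other genes of G2/M and mitosis, 55 had a promoter entry, and 69.1% of these held a CHR core and 65.5% a CCAAT box. Among 36 S phase genes, 31 had an entry, of which 3.23% (1 gene) held a CHR core and 61.3% a CCAAT box. The CHR core was thus frequent in both groups of mitotic genes and rare in the S phase genes, whereas the CCAAT box was frequent in all of them. The following stretches, from base 130 to base 11 before the start, are shown for 4 promoters with both motifs (CCNB2, PLK1, CDC20, HMMR), for NUSAP1 and CKAP2L, which differed between the arms, for KIF20A, with the largest rise, and for KIF23, whose time course departed most from the others. Sequences read 5′ to 3′ on the strand of the gene, and capitals mark the CHR core (TTTGAA, or TTCAAA on the other strand) and the CCAAT box (CCAAT, or ATTGG on the other strand).
CCNB2 (chr15:59105016-59105135, forward strand): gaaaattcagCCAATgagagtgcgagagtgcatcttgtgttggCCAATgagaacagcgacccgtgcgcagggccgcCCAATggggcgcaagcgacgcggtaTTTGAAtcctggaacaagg
PLK1 (chr16:23678759-23678878, forward strand): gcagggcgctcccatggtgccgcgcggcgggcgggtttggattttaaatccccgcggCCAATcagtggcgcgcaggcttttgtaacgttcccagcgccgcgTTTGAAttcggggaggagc
CDC20 (chr1:43358851-43358970, forward strand): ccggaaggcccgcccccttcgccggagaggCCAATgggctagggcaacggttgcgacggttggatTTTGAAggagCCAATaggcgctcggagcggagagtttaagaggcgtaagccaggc
HMMR (chr5:163460502-163460621, forward strand): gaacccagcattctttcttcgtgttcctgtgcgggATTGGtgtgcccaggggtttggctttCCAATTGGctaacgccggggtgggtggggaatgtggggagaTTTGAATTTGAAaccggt
NUSAP1 (chr15:41332751-41332870, forward strand): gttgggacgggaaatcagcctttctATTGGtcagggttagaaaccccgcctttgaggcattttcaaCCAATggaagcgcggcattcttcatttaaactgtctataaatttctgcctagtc
CKAP2L (chr2:112764620-112764739, reverse strand): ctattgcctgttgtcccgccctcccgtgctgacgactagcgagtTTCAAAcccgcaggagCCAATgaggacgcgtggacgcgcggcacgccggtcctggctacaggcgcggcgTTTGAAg
KIF20A (chr5:138178982-138179101, forward strand): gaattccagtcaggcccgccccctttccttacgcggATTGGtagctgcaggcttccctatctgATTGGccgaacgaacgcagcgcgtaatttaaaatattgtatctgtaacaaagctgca
KIF23 (chr15:69414219-69414338, forward strand): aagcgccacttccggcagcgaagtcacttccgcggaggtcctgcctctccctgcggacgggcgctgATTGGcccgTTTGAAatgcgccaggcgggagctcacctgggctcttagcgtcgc
In the stretches shown, CCNB2 held 3 CCAAT boxes upstream of 1 CHR core, and PLK1 and KIF23 held 1 of each. CDC20 held a CHR core between its CCAAT boxes there. The windows of CCNB2 and CDC20 held further matches outside these stretches. In HMMR 2 CHR cores stood side by side. NUSAP1 and KIF20A had CCAAT boxes and no CHR core in the stretch shown, although NUSAP1 had one at base 13 after its start.

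In the controls all 37 genes rose from time 0 to the days of culture, as the map of levels by time shows. The mean of days 1 to 7 exceeded time 0 in 37 of 37 genes, with a median difference of 1.60 (24.9% of all genes tested were higher in this comparison, and the median over all genes was 0.0086). The range ran from 0.48 ± 0.08 for KIF23 to 2.88 ± 0.07 for KIF20A (limma, adjusted p = 3.19e-45). In the cetuximab arm 37 of 37 rose too, with a median of 1.63 and a range from 0.77 for MAD2L1 to 2.90 for KIF20A (25.2% of all genes higher).

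**Figure D1:**
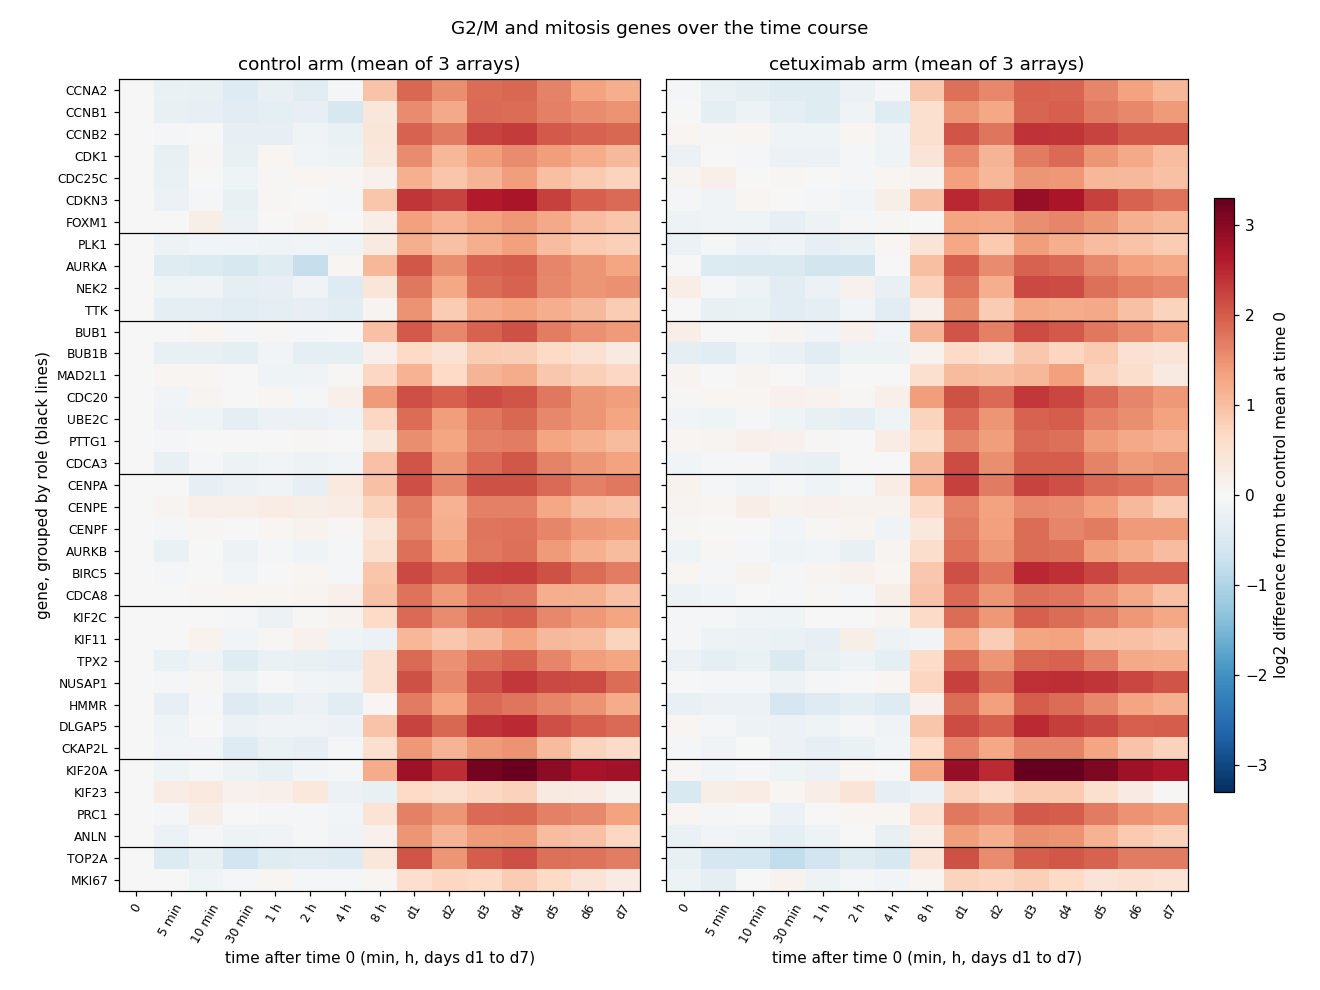
Mean log2 level of each of the 37 genes (rows, grouped by role) at each time (columns), as the difference from its control mean at time 0, for the control arm and the cetuximab arm (3 arrays per cell of the map). Until 4 h most values lie near or somewhat below 0, in controls from -0.76 (AURKA) to 0.34 (KIF23), both at 2 h. At 8 h most genes but not KIF11 and KIF23 are above 0 in controls. Levels are highest on day 1 and days 3 to 4 and lower by day 7. KIF20A has the largest rise, 2.88 in controls.

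KIF20A, a kinesin of the central spindle, had control levels of 5.29, 5.18 and 5.20 at time 0, of 6.40, 6.46 and 6.49 at 8 h and of 8.41, 8.47 and 8.61 on day 4. In the cetuximab arm its levels were 5.27, 5.25 and 5.26 at time 0 and 8.49, 8.48 and 8.52 on day 4. Within each arm no array of day 4 came near any array of time 0, and the arms overlapped on day 4. The rise to the mean of days 1 to 7 was 7.34-fold in controls and 7.46-fold with cetuximab.

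The next largest rises in controls were those of CDKN3, a phosphatase that acts on CDKs (2.29 ± 0.07), DLGAP5, a spindle assembly factor (2.13 ± 0.07), NUSAP1, which bundles spindle microtubules (2.04 ± 0.07), and BIRC5 or survivin, of the chromosomal passenger complex (2.04 ± 0.07). CDKN3 went from 5.77, 6.01 and 6.08 in the controls at time 0 to 8.59, 8.61 and 8.75 on day 4, and BIRC5 from 6.03, 6.21 and 6.09 to 8.22, 8.51 and 8.45. DLGAP5 went from 6.28, 6.27 and 6.31 to 8.66, 8.79 and 8.75. None of these control groups overlapped between the times.

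Among cyclins, CDK1 and their regulators, all 7 genes rose in controls (median 1.60). CCNB1, the cyclin B1 of mitotic entry, stood at 6.49, 6.27 and 6.53 in the controls at time 0 and at 8.39, 8.43 and 8.01 on day 4. Its rise to the mean of the days was 1.60 ± 0.11. CDK1 stood at 7.38, 7.72 and 7.62 at time 0 and at 9.21, 9.27 and 8.94 on day 1, with a rise of 1.33 ± 0.10. Both genes lay higher on these days in every control array than in any control array of time 0.

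The 4 mitotic kinases rose by a median of 1.38 in controls. PLK1, the kinase of spindle assembly and mitotic exit, went from 5.12, 4.96 and 4.76 at time 0 to 6.14, 6.48 and 6.31 on day 4 in controls (rise to the mean of the days 1.05 ± 0.10). AURKB, the kinase of the passenger complex, went from 6.42, 6.39 and 6.34 to 8.28, 8.00 and 8.32 in controls (1.47 ± 0.10). TOP2A, which untangles sister DNA, went from 7.60, 7.71 and 7.86 to 9.81, 9.79 and 9.93 (1.85 ± 0.08). The groups did not overlap for any of them.

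The smallest rises were those of MKI67, BUB1B and KIF23. MKI67, the proliferation antigen Ki-67, was read by a probe that lay low throughout (mean 4.70 over the arrays), at 4.59, 4.35 and 4.39 in the controls at time 0 and 5.33, 5.26 and 5.24 on day 4. Its rise in controls, 0.58 ± 0.13, was significant (limma, adjusted p = 8.01e-05) and that of BUB1B, a kinase-like protein of the spindle checkpoint, was 0.60 ± 0.12. KIF23, a kinesin of cytokinesis, rose by 0.48 ± 0.08.

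Through the first 4 h there was little movement upward. At 30 min 9 of the 37 genes lay below time 0 in controls (8.69% of all genes were lower) and 9 with cetuximab (13.2%). TOP2A fell most in both arms at that time, by 0.62 in controls and by 0.59 with cetuximab, and AURKA, the centrosomal Aurora kinase, fell by 0.52 and by 0.48. Other genes lower in both arms were CCNA2, CCNB2, TTK, TPX2 and HMMR. All differences from time 0 in an arm share its time 0 arrays.

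From 2 h to 4 h 4 of the 37 genes changed in controls (10.5% of all genes) and 2 with cetuximab (5.74%), shares near those of all genes. AURKA was at 6.83, 6.65 and 6.51 in controls at 2 h and at 7.40, 7.63 and 7.43 at 4 h, a rise of 0.82 ± 0.08 (limma, adjusted p = 7.68e-13), and it rose by 0.63 ± 0.08 in the cetuximab arm. In controls CENPA, the centromeric histone, rose by 0.61 ± 0.10 and CCNA2, the cyclin of S and G2 phase, by 0.31 ± 0.09. The same steps with cetuximab were 0.30 (adjusted p = 0.082, limma) and 0.15 (adjusted p = 0.38, limma) and did not pass the test, and the difference between the arms in these steps was not tested.

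KIF23 went the other way. It lay at 7.39, 7.37 and 7.59 in controls at 2 h and at 6.93, 6.97 and 6.90 at 4 h, and in the cetuximab arm at 7.64, 7.39 and 7.55 and then at 6.52, 7.02 and 6.99. From 2 h to 4 h it changed by -0.52 ± 0.11 in controls and by -0.69 ± 0.11 with cetuximab (limma, adjusted p = 0.00043 and 6.96e-06), and the arrays of 2 h and 4 h did not overlap in either arm. Before that it had been above time 0 in the cetuximab arm from 5 min (0.70 ± 0.11) to 2 h (0.92 ± 0.11, limma, adjusted p = 9.5e-10), from the low time 0 level described with the arm differences, and in controls at 2 h (0.34 ± 0.11, adjusted p = 0.035, limma). From 8 h to day 1 it rose by 0.90 in controls and by 0.95 with cetuximab. All values of KIF23 in this report come from its brighter probe. A dimmer probe of KIF23 (mean 4.80) also lay above the dim limit, and its values are not given here.

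At 8 h 26 of the 37 genes were above time 0 in controls (19% of all genes were higher), with a median of 0.50, and 32 of 37 in the cetuximab arm (17.1%), with a median of 0.64. From 4 h to 8 h 31 genes rose in controls (17% of all genes) and 31 with cetuximab (17.5%). CDC20, the activator of the anaphase-promoting complex, and AURKA, KIF20A and DLGAP5 were among the genes that rose by more than 1 log2 unit in controls. KIF11, the kinesin that pushes the spindle poles apart, was at 6.10, 5.77 and 6.16 in the controls at 4 h and at 5.98, 6.02 and 5.90 at 8 h, and reached 7.45, 7.51 and 6.82 on day 1. CDC25C, FOXM1, TTK, KIF11 and MKI67 were not significantly above time 0 at 8 h in either arm.

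From 8 h to day 1 37 of 37 genes rose in controls (16.6% of all genes) and in the cetuximab arm (18.7%), by medians of 1.18 and 1.17. On day 1 every one of the 37 stood above time 0 in controls (median 1.74, 19.3% of all genes higher) and with cetuximab (median 1.85, 20.2%). In the plots of single arrays this is the largest step between neighbouring times for most of the genes shown; the times are not evenly spaced.

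**Figure D2:**
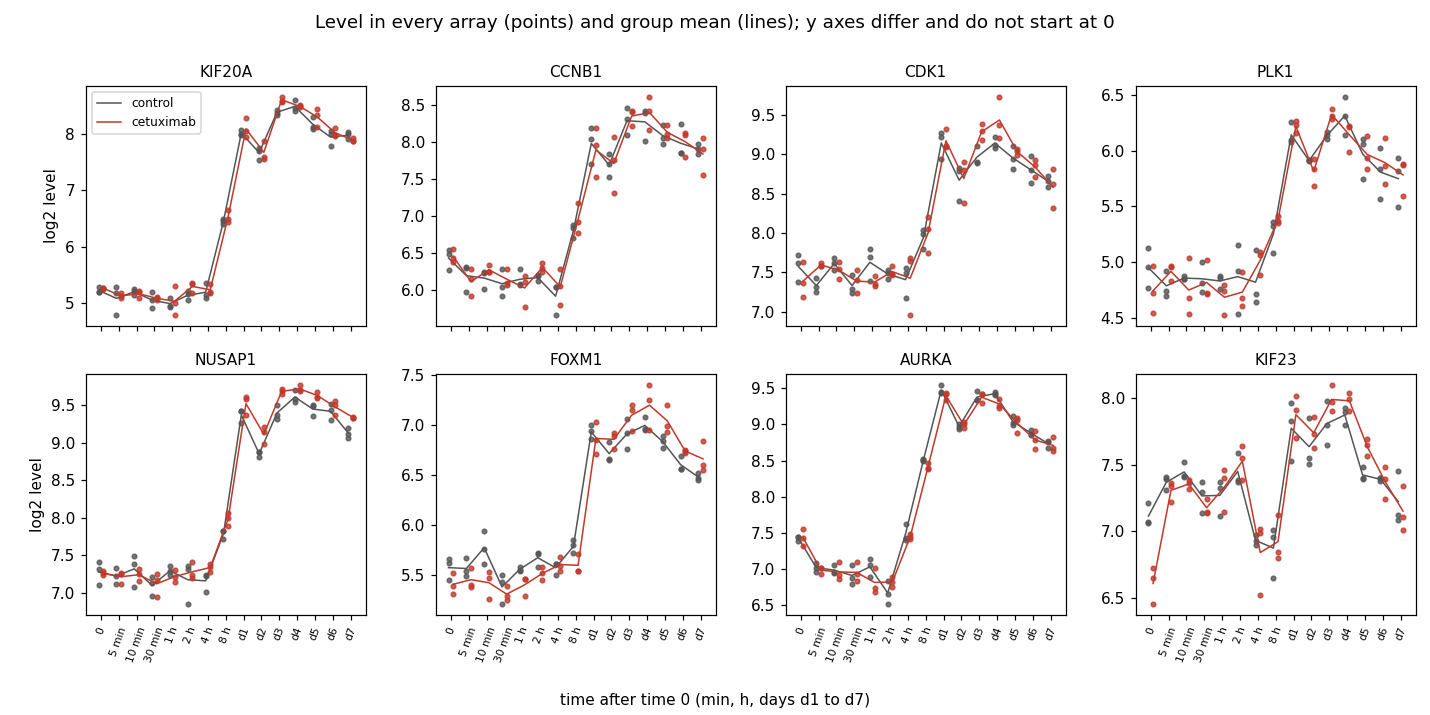
Log2 level in every array (points) and group means (lines) over time for 8 of the genes, controls in grey and cetuximab in red; the axes differ between genes and do not start at 0. KIF20A, CCNB1, CDK1, PLK1, NUSAP1 and FOXM1 climb from 4 or 8 h to day 1 in both arms and AURKA already from 2 h, whereas KIF23 falls at 4 h, by 0.52 in controls, and starts lower in the cetuximab arm at time 0.

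The level then dipped and recovered. From day 1 to day 2 23 genes fell in controls (3.42% of all genes) and 20 with cetuximab (3.76%), with median changes of -0.35 and -0.37 over the 37 genes. The deepest dips in controls were those of TTK, a checkpoint kinase (fell by 0.65), CDCA3 (fell by 0.62) and TOP2A (fell by 0.60), and in the cetuximab arm again TTK, which fell by 0.71. From day 2 to day 3 21 genes rose in controls (1.86% of all genes) and 27 with cetuximab (2.84%). TOP2A, for instance, was at 9.69, 9.79 and 9.91 on day 1, 9.17, 9.19 and 9.22 on day 2 and 9.66, 9.75 and 9.76 on day 3 in controls, and the day 2 arrays lay below all others. Of 34 S phase genes tested 1 fell and 4 rose from day 1 to day 2 in controls, and of 60 other G2/M genes 21 fell and 0 rose (limma; 42 of the 60 passed in either direction at an unadjusted p under 0.05); the difference between the lists was not tested.

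The highest control level fell on day 4 for 24 genes, on day 1 for 8 and on day 3 for 5. With cetuximab it fell on day 3 for 22, on day 4 for 8 and on day 1 for 7. From day 3 to day 4 limma called 0 of the 37 genes in either arm. The median changes were 0.07 in controls and -0.03 with cetuximab. Of all 12735 genes 53 and 104 were called in this step. A shift of the highest day between the arms was not tested. From day 4 to day 5 20 genes fell in controls (4.86% of all genes) and 12 with cetuximab (4.53%). A straight line over days 1 to 7 declined in 27 genes in controls (22.7% of all genes) and in 26 with cetuximab (23.8%), with CDC20 (-0.13 per day), CDCA8 (-0.13 per day) and CKAP2L (-0.12 per day) the steepest in controls. On day 7 34 genes were still above time 0 in controls (25.5% of all genes) and 36 with cetuximab (24.7%); the exceptions were BUB1B, KIF23 and MKI67 in controls and MAD2L1 with cetuximab.

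The 37 genes moved closely together. The correlation of each gene with the mean of the others over the 90 arrays, which share their times, had a median of 0.977, from 0.994 for UBE2C, the ubiquitin-conjugating enzyme of the anaphase-promoting complex, down to 0.848 for MKI67 and 0.637 for KIF23. Averaged over the genes after centring each on its own mean, the control arrays lay between -0.73 and -0.68 at time 0 and between 1.05 and 1.11 on day 4, and the cetuximab arrays between -0.80 and -0.73 and between 1.08 and 1.13. Over the same arrays 1130 of 12698 other genes correlated with this mean above 0.8, and 51 of the 60 other G2/M genes did. Outside the lists the most alike were PBK, a mitotic kinase (r = 0.988), GPSM2, which orients the spindle (0.986), KIF20B (0.984), TIMELESS (0.980), OIP5-AS1 (0.978), DUT (0.976), NDUFS8 (0.974), PARP1 (0.973), ISOC2 (0.972) and RNASEH2A (0.971), and the least alike were PPP1R15A (-0.977), LAMB3 (-0.977), RASD1 (-0.967), SMOX (-0.966) and TFF1 (-0.965).

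Other cell cycle lists give the setting. Of all 12735 genes tested, 3176 rose and 2690 fell in controls from time 0 to the days (limma). The shares of the lists were not tested against these. Of 60 other G2/M and mitosis genes 57 rose in controls from time 0 to the days, with a median of 0.97, and 1 fell, WEE1, the kinase that restrains CDK1 (-1.77 ± 0.08, named after its value was seen). Of 34 S phase genes 31 rose with a median of 0.57. Of 12 MuvB, B-MYB and DREAM subunits 6 rose and 2 fell. Among 11 CDK inhibitors and quiescence genes 3 rose and 4 fell, among them KLF4 (-2.88 ± 0.14) and CDKN1A, the CDK inhibitor p21 (-2.24 ± 0.08).

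Between the arms the differences were small. At single times after time 0 none of the 37 genes was called by limma at any of 14 times. At an unadjusted p under 0.05 between 1 and 13 of the 37 passed per time. Of all 12735 genes tested between 788 at 5 min and 1598 at 4 h did. The share of all genes called was 0.00785% at 5 min and 0.00785% at 10 min, and 0.126% at 30 min. It was 0.306% after 1 h, 0.408% after 2 h, 1.71% after 4 h and 0.503% after 8 h. On days 1 to 7 it was 1.41%, 1.88%, 2.47%, 2.96%, 1.11%, 0.722% and 1.33%. The interval of a difference at a single time was wide, with a median half-width of 0.21 at a confidence level of 95%, without adjustment over genes. Differences larger than this were not called either, such as 0.40 at 5 min, 0.36 at 8 h and -0.38 on day 7.

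**Figure D3:**
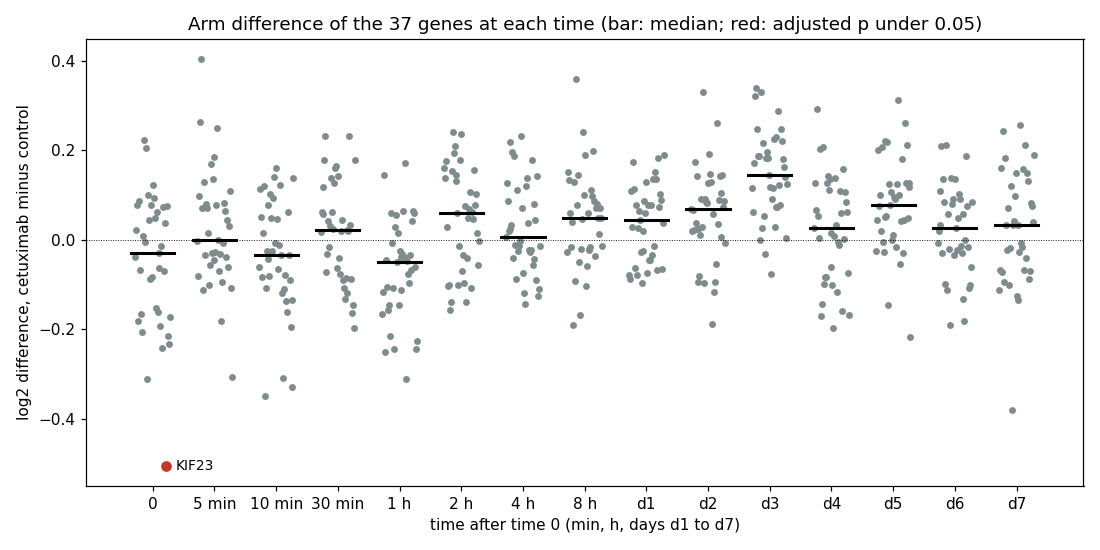
Log2 difference, cetuximab minus control, of each of the 37 genes (points) at each time, with the median of the genes as a bar and genes called by limma in red. The medians lie between -0.05 at 1 h and 0.14 on day 3, and KIF23 at time 0 (-0.51) is the one called point.

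At time 0 KIF23 was lower in the cetuximab arm, at 6.72, 6.46 and 6.65 against 7.21, 7.07 and 7.06, and the arrays did not overlap (-0.51 ± 0.11, limma, adjusted p = 0.003). It was the 1 gene of 37 called at time 0, where 2.48% of all genes were called. After time 0 its arms overlapped at all times but 10 min, when the cetuximab arrays lay below the controls, and day 5, when they lay above; at 2 h the cetuximab arrays stood at 7.64, 7.39 and 7.55 and the controls at 7.39, 7.37 and 7.59. The call was lost in the fit without replicate number 2 (-0.45, adjusted p = 0.27), when the cetuximab array of that number was left out alone (-0.43, adjusted p = 0.065), and in the fit of the time 0 arrays alone (-0.51, adjusted p = 0.077).

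Day 3 carried the most positive differences. On that day 34 of the 37 genes were higher with cetuximab, by a median of 0.14 (all genes 0.0096). All cetuximab arrays lay above all control arrays in 15 genes, against 8.38% of all genes. Of the 37, 13 passed at an unadjusted p under 0.05, as did 1366 of the 12735 genes tested. None of the 37 passed after adjustment over all genes (limma). The mean of the centred genes lay between 0.98 and 1.04 in the control arrays and between 1.14 and 1.17 in the cetuximab arrays on day 3, without overlap. On day 4 the same ranges were 1.05 to 1.11 and 1.08 to 1.13 and overlapped.

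Over days 1 to 7 together 7 of the 37 genes were higher with cetuximab (7.39% of all genes were higher) and 0 were lower (5.96%). Of the 37, 11 passed at an unadjusted p under 0.05, as did 3036 of the 12735 genes tested. The median difference was 0.05, against 0.0032 over all genes, and 30 of 37 were above 0. A share of 7 in 37 lies above the share among all genes, but the genes move together and the difference of the shares was not tested. Marker genes differed between the arms in the same days too: of 7 epithelial markers MUC1 (0.30 ± 0.03) and KRT7 (0.11 ± 0.03) were higher with cetuximab, and of 4 fibroblast markers above the dim limit LUM was (0.24 ± 0.06); their part in the result was not tested. In the 7 genes called among the 37 the size of the difference was between 0.09 and 0.19. Taken relative to the arm difference at time 0, a base of 3 arrays per arm, none of the 7 was called (adjusted p from 0.065 for FOXM1 to 0.91 for PTTG1, limma), and KIF23 was the 1 gene of 37 called (0.59 ± 0.12), where 3.65% of all genes were called. Without replicate number 1, 3 of the 37 genes were called over the days, and without number 3, 4 were.

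**Figure D4:**
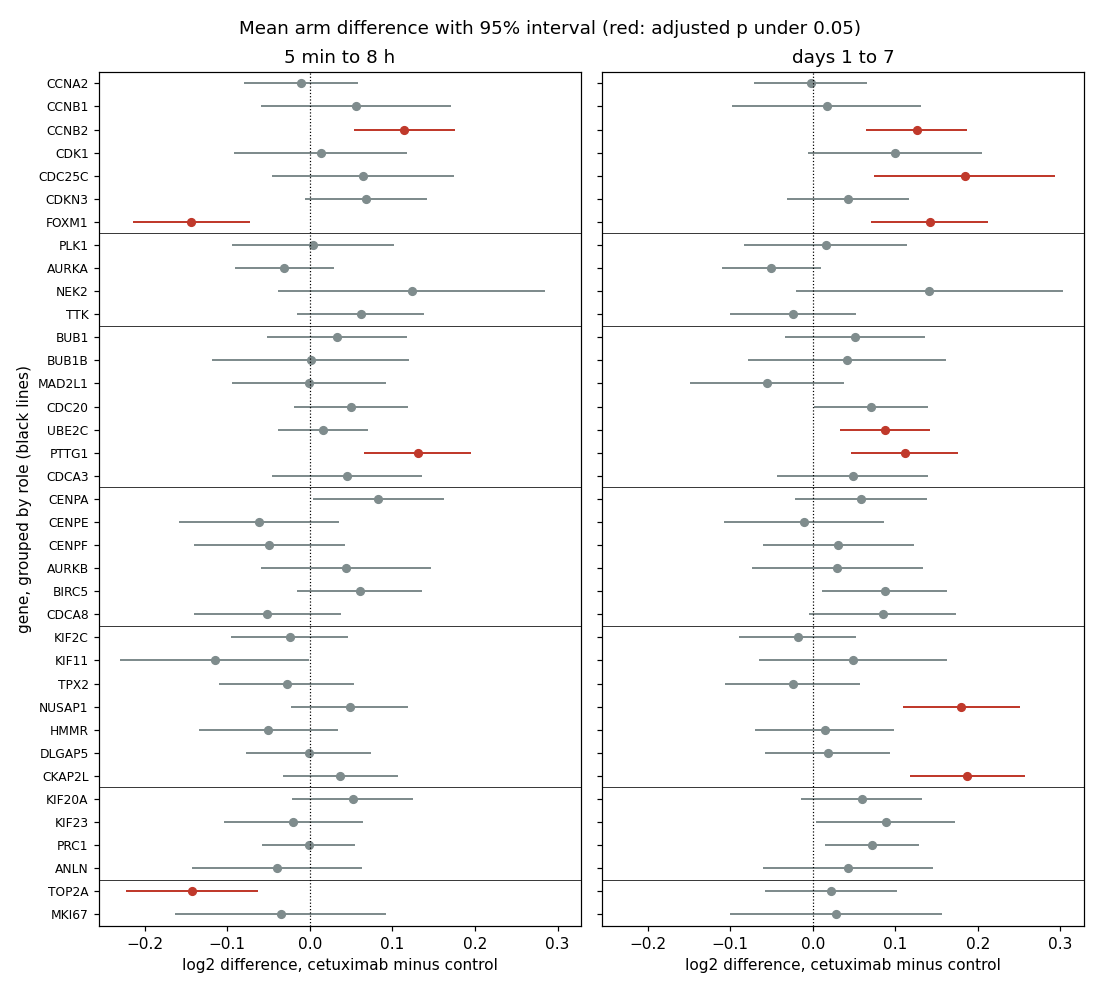
Mean log2 difference, cetuximab minus control, over 5 min to 8 h and over days 1 to 7 for each of the 37 genes, with the 95% interval of the limma fit as a line and called genes in red. In the days 7 genes are called and all are positive, up to 0.19 for CKAP2L; in the first hours CCNB2 and PTTG1 lie above 0 and FOXM1 and TOP2A below.

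CKAP2L, a protein of the mitotic spindle, showed the largest difference, 0.19 ± 0.03 (95% interval 0.12 to 0.26, limma, adjusted p = 2.34e-05). On day 3 it was at 7.52, 7.54 and 7.67 with cetuximab and at 7.34, 7.32 and 7.31 in controls, without overlap. NUSAP1 differed by 0.18 ± 0.03 (adjusted p = 7.24e-05, limma), at 9.65, 9.71 and 9.69 on day 3 against 9.37, 9.50 and 9.32. Its arrays did not overlap on 4 of the 7 days, with cetuximab above each time. A dimmer probe of NUSAP1 gave 0.07 ± 0.05 over the days and was not called.

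CDC25C, the phosphatase that activates CDK1, differed by 0.18 ± 0.05 and CCNB2, or cyclin B2, by 0.13 ± 0.03. CCNB2 stood at 9.78, 9.65 and 9.81 on day 3 with cetuximab and at 9.55, 9.55 and 9.62 in controls. PTTG1, the securin that holds back separase, differed by 0.11 ± 0.03 and UBE2C by 0.09 ± 0.03, the smallest of the called differences. Dimmer probes of CDC25C (5.23 and 5.01), PTTG1 (8.26) and UBE2C (4.86) also had means above the dim limit. Their differences are not given here. With the mean of probes, 3 of the called gene differences in this report lost the call. UBE2C was at 10.86, 10.80 and 10.84 with cetuximab on day 3 and at 10.59, 10.68 and 10.64 in controls, and its call was lost on leaving out any of replicate numbers 1, 2 and 3 (adjusted p = 0.14, 0.11 and 0.14, limma). CCNB2, CDC25C, UBE2C, PTTG1, NUSAP1 and CKAP2L were higher with cetuximab in mean on all 7 days. CCNB2 and PTTG1 were higher with cetuximab from 5 min to 8 h already, by 0.11 and 0.13.

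FOXM1, the transcription factor of the G2/M programme, changed side. Over 5 min to 8 h it was lower with cetuximab (-0.14 ± 0.03, limma, adjusted p = 0.0032), for example at 5.29, 5.46 and 5.46 at 1 h against 5.54, 5.58 and 5.55 and at 5.54, 5.54 and 5.71 at 8 h against 5.80, 5.85 and 5.72. Over the days it was higher (0.14 ± 0.03, adjusted p = 0.0022), on day 3 at 7.20, 6.94 and 7.15 against 6.76, 6.91 and 7.06, where the groups overlapped. The difference between the windows was 0.29 ± 0.05 (limma, adjusted p = 1.95e-05), and at time 0 the cetuximab arrays were already at 5.31, 5.52 and 5.39 against 5.45, 5.66 and 5.62. A dimmer probe of FOXM1 differed by 0.04 ± 0.05 over the days and was not called.

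In the first hours, from 5 min to 8 h, 2 of the 37 genes were higher with cetuximab (4.09% of all genes) and 2 lower (5.96%). Of the 37, 6 passed at an unadjusted p under 0.05, as did 2814 of the 12735 genes tested. CCNB2 (0.11 ± 0.03) and PTTG1 (0.13 ± 0.03) were the higher ones and FOXM1 and TOP2A (-0.14 ± 0.04) the lower. TOP2A was below the controls at time 0 as well, with 7.43, 7.52 and 7.51 against 7.60, 7.71 and 7.86 and no overlap. Relative to the arm difference at time 0 the early differences of FOXM1 and TOP2A turned to 0.02 and 0.09 and none of the 4 was called (1.27% of all genes were, and KIF23 as the 1 of the 37), and without 10 min FOXM1 and TOP2A lost the call (adjusted p = 0.056 and 0.093, limma). Without replicate number 1 or number 2, 1 of the 37 genes was called in these hours. Late minus early, 2 of 37 genes were called, FOXM1 and CKAP2L (0.15 ± 0.05, adjusted p = 0.043, limma), where 6.99% of all genes were called; without replicate number 1, 2 or 3, 1 gene was called. A change of the difference from day to day over the days was called in 0 of 37 genes by limma (1.34% of all genes). At an unadjusted p under 0.05 it passed in 2 of the 37, and in 1400 of the 12735 genes tested.

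The genes not called over the days bounded the effect. Before adjustment over genes, 95% intervals lay above 0 for BIRC5 (0.01 to 0.16), PRC1 (0.02 to 0.13), KIF23 (0.0053 to 0.17) and CDC20 (0.0023 to 0.14). The intervals given next for single genes include 0. For CCNA2 the difference over the days was -0.0025, with a 95% interval from -0.07 to 0.06, for CENPE, the kinesin-like motor of kinetochores, -0.01 (from -0.11 to 0.08), and for HMMR, a spindle protein, 0.01 (from -0.07 to 0.10). For CCNB1 it was 0.02 (from -0.10 to 0.13), for PLK1 0.02 (from -0.08 to 0.11), for AURKB 0.03, for TOP2A 0.02 and for MKI67 0.03 (from -0.10 to 0.15). CDK1 stood at 0.10 (from -0.0041 to 0.20) and NEK2, a centrosomal kinase with the widest spread, at 0.14 (from -0.02 to 0.30). Over all 37 genes the lowest bound of an interval was -0.15 for MAD2L1, a 0.903-fold level, and the highest was 0.30 for NEK2, a 1.23-fold level.

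By role, 3 of 7 cyclin and CDK1 genes, 2 of 7 checkpoint and anaphase-promoting complex genes and 2 of 7 kinesin and spindle genes were higher over the days, and 0 of 4 mitotic kinases, 0 of 6 centromere and passenger genes, 0 of 4 cytokinesis genes and 0 of 2 chromosome genes by limma (at an unadjusted p under 0.05, 0, 1, 2 and 0). Of the 60 other G2/M genes KIF15 (0.19 ± 0.06), PIMREG (0.16 ± 0.05) and CENPM (0.14 ± 0.03) were higher and SGO1 (-0.14 ± 0.04) and RACGAP1 (-0.09 ± 0.03) lower, with a median of 0.03 over the list. Of the 34 S phase genes 7 were higher, among them E2F2 (0.13 ± 0.04), and UHRF1 (-0.19 ± 0.04) and RRM2 (-0.13 ± 0.04) were lower. Among all genes 7.39% were higher and 5.96% lower over the days. The shares of the roles and lists were not compared by a test. No MuvB, B-MYB or DREAM subunit of 12 was called by limma (1 at an unadjusted p under 0.05), and of the CDK inhibitors and quiescence genes GAS1 was higher (0.28 ± 0.06) and TOB1, an antiproliferative protein, lower (-0.24 ± 0.04).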

How the data were processed

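The values deposited by the authors were taken as log2 expression: they lie between 0.26 and 13.76, and no label gives the log base. Array medians were nearly alike. Limma is named, without a version, in the submitters' processing notes; background correction and normalisation: not given in the sources used here. Of 47292 probes 30096 carried 1 gene symbol. Probes with a mean at or below the median of all probe means were left out, and the probe with the highest mean stood for a gene, which left 12735 genes. A mean for each of 30 groups was fitted with limma 3.58.1 in R 4.3.3 (lmFit, eBayes, 60 residual degrees of freedom), and contrasts were two-sided with Benjamini-Hochberg adjustment. The number of arrays limits the precision. Samples were grouped by arm and time as labelled, and none was left out.

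The members and the lists were chosen with earlier results of these data known. Genes named with array values were CCNB1, CDK1, PLK1, AURKB, MKI67, TOP2A and FOXM1, the 5 largest control rises, and the 5 largest and 3 smallest absolute differences over the days. Of other lists up to 6 G2/M genes and 3 genes each were named by size of the difference over the days, and genes of no list by correlation. KIF11, KIF23, AURKA, CENPA and WEE1 were described in detail after their values were seen. The same holds for KLF4, CDKN1A and the day 3 values. Promoter sequences are from RefSeq. Alternatives were median centring, quantile normalisation, other filters, the mean of probes, other priors, array weights, only the arrays compared, a replicate block, other bases and leaving out replicates; leaving out single times or time 0 arrays was added after seeing the data. The fit was tested on simulated data. The paper supplied served for style alone.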

Additional observations from a re-analysis of the deposited data

Results flagged for a closer look

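The arm difference of FOXM1 differed between the time windows: late minus early was 0.29 ± 0.05 (limma, adjusted p = 1.95e-05). That of CKAP2L was 0.15 ± 0.05 (adjusted p = 0.043, limma). The arm difference of KIF23 differed from its difference at time 0, by 0.59 ± 0.12 over days 1 to 7 (adjusted p = 0.0005, limma) and by 0.48 ± 0.12 over 5 min to 8 h (adjusted p = 0.015, limma); both share the time 0 arrays, in which the cetuximab arm was at 6.72, 6.46 and 6.65 for KIF23 and the controls at 7.21, 7.07 and 7.06.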

How the results depend on the processing

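Of the counts recomputed under alternatives, 155 stayed within 1.5 times the value given and 15 did not. In both arms the rise over the days was called in 37 genes in 20 of the alternatives run and in 36 with the stricter filter, which dropped MKI67. The late minus early count of 2 became 1 with median centring, 1 with no filter and 1 to 3 on leaving out replicate numbers. The count of 7 over days 1 to 7 became 1 relative to time 0 and 3 to 7 without a replicate number. The count of 4 over 5 min to 8 h became 1 relative to time 0, 2 without 10 min (added after seeing the data) and 1 to 4 without a replicate number. The pairs of gene and time called from time 0 to 8 h (1) became 0 with only the arrays compared and 0 to 1 without a replicate number. Fits without a replicate number or a time, and those of only the arrays compared, hold fewer arrays; for the others the cause was not tested.

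The labels do not say that a replicate number marks a shared culture or day. Deviations of 43 same-numbered pairs correlated by -0.04 to 0.57, 26 of them above 0.1, and 37 correlated best with their own number, a hint of shared deviation from the data and not from the design, so the numbers were not taken as pairs. With the replicate block as a fixed term 7 genes were called over the days, 4 over the first hours and 2 late minus early; with a random replicate block these were 8, 4 and 3, and 1 pair of gene and day was called where none was before (NUSAP1 on day 3, 0.29, adjusted p = 0.042, limma).

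Signs turned in differences near 0. Over days 1 to 7 CENPE became 0.0029 with array weights, and relative to time 0 CCNB1 became -0.0046, DLGAP5 -0.053, NEK2 -0.083 and CCNA2 0.036; over 5 min to 8 h FOXM1 became 0.023 and TOP2A 0.091. Without a replicate number the differences over the days ran from -0.0065 to 0.0394 for CCNB1, -0.0175 to 0.045 for PLK1, -0.037 to 0.0707 for MKI67, -0.0101 to 0.0422 for TOP2A, -0.0224 to 0.0436 for DLGAP5, -0.0109 to 0.0112 for CCNA2 and -0.0372 to 0.02 for CENPE. Of 22 alternatives, the late call was lost in 1 for CKAP2L and NUSAP1, 2 for CCNB2 and FOXM1, 4 for CDC25C and PTTG1 and 8 for UBE2C.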
